A study of Mus musculus with 12 samples.

Results

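SOX and OLIG proteins are transcription factors that decide how neural stem cells stay stem cells or become neurons and glia. The 9 genes described here, Sox2, Sox3, Sox4, Sox8, Sox9, Sox10, Sox11, Olig1 and Olig2, are those of the 2 families that are best known in neural stem cells and glial precursors, and they were chosen by name out of 18193 genes measured on the arrays. They were read by 26 probe sets that map to 1 of the 9 genes alone, of which 24 were averaged into the gene values. In the study, expression was measured on Affymetrix mouse arrays in medulloblastomas (MBs, n = 8), in granule neural progenitors (GNPs, n = 2) and in non-neoplastic whole cerebellum (n = 2). Each array has its own sample number, taken here as 1 mouse. The MBs came from XRCC4/p53-deficient animals, that is Nestin-Cre p53-/- mice with inactivated Xrcc4, a factor of canonical end joining. Nestin-Cre deletes Xrcc4 in nestin-expressing neural progenitors and in what descends from them, so these are tumors of 1 genetic model. The paper describes the GNPs and the cerebellum as taken from control animals matched for age and genotype, the labels state no genotype for them, and no age was given in the sources used here. The labels call the MBs tumor tissue, while 6 of the 8 tumor numbers (MB_630, MB_794, MB_1197, MB_1206, MB_1207 and MB_1224) also appear in the methods among MB cells kept in culture.

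All SOX proteins bind DNA through a shared HMG box, and the groups within the family act at different steps. Sox2 and Sox3 (group B1) hold neural stem cells in the undifferentiated state, Sox4 and Sox11 (group C) switch on neuronal genes in cells leaving that state, and Sox8, Sox9 and Sox10 (group E) act in glia. Sox9 starts gliogenesis, Sox10 drives myelin genes, and the bHLH proteins Olig1 and Olig2 direct motor neuron and oligodendrocyte fate, with Olig2 also keeping progenitors dividing. In the cerebellum, granule neurons arise from progenitors of the external granule layer, the cells of origin of Sonic Hedgehog MB, while oligodendrocyte precursors and Bergmann glia are present beside them.

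Values are log2 expression levels, on which a difference of 1 is a doubling, and the lowest value on the arrays was 2.20. A group was taken as at the floor where every sample lay within 0.5 of it, and a difference from such a group as a lower bound. Differences were tested with limma in 1 fit of the 3 groups, 2-sided, with Benjamini-Hochberg adjustment over 18193 genes and a threshold of 0.05. The 3 groups share 1 estimate of the spread, which comes mostly from the 8 MBs. Leaving out an MB can therefore change a call for GNPs against cerebellum. Levels of different genes come from different probes and are not compared with each other. With bulk samples, fewer cells of a type and less RNA per cell cannot be told apart. In GNPs, 5 of 10 granule progenitor markers exceeded cerebellum and 2 fell below it (limma). Atoh1, which defines granule progenitors, averaged 11.95 in MBs, 5.95 in GNPs and 2.76 in cerebellum, while the Hedgehog target Gli1 was at the floor in GNPs, at 2.30, against 3.50 in cerebellum, and the cyclin Ccnd1 was at 4.78 in GNPs and 7.30 in cerebellum. Mesenchymal markers had a mean over 7 genes of 6.29 to 6.48 in GNPs, against 4.11 to 4.28 in cerebellum. Of 10 markers of astrocytes and Bergmann glia, GNPs had 1 above cerebellum (Gfap, 9.02 in GNPs and 5.01 in cerebellum) and 3 below it. The same shares of all genes apply (14.9% higher, 13.6% lower). The mean of the 10 was 7.69 to 7.79 in GNPs, against 9.39 to 9.43 in cerebellum. The median difference over all genes was 0 in each comparison, and the 3 comparisons share samples.

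Sox4 and Sox11, the neuronal pair, gave the widest separation of any members, with high levels in MBs and GNPs and low levels in whole cerebellum. Sox11 (chromosome 12, 27334268 to 27342718, GRCm38.p6) was measured at 11.50, 11.50, 11.25, 10.80, 11.13, 11.15, 11.23 and 11.23 in MB_1187, MB_1197, MB_1206, MB_1207, MB_1224, MB_630, MB_706 and MB_794, at 10.89 and 10.33 in GNPs (CGNP_2698 and CGNP_2705), and at 3.81 and 3.95 in cerebellum (WC_2646 and WC_2647). The lowest MB lay far above both cerebellum samples and between the 2 GNP samples. Sox11 was 7.34 higher in MBs than in cerebellum (standard error 0.184, adjusted p = 9.6e-10, limma). In GNPs it was 6.73 higher than in cerebellum (standard error 0.233, adjusted p = 1.9e-08, limma). The difference between MBs and GNPs was far smaller, 0.61 (standard error 0.184, adjusted p = 0.0251, limma), and the groups overlapped.

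Sox4 (chromosome 13, 28948919 to 28953699) had levels of 7.37, 6.56, 7.30, 7.61, 7.24, 7.70, 7.17 and 7.12 in the MBs, in the same order, of 7.33 and 7.36 in GNPs and of 3.75 and 3.77 in cerebellum. Every MB and GNP sample stood well above both cerebellum samples, and the GNPs lay inside the range of the MBs. The gene was 3.50 higher in MBs than in cerebellum (standard error 0.236, adjusted p = 1.3e-06, limma) and 3.59 higher in GNPs than in cerebellum (standard error 0.298, adjusted p = 1.4e-05, limma). Between MBs and GNPs the difference was -0.09 with a 95% interval from -0.62 to 0.44, and it did not pass (adjusted p = 0.937, limma).

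The promoters of the pair are shown because both genes are low in whole cerebellum and high in the other groups. That of Olig2 is shown because it separated from its neighbor Olig1, as described further on. They come from RefSeq (GRCm38.p6), read 5′ to 3′ on the strand of the gene from 250 bases before to 50 bases after its start. Capitals mark CAGCTG, a bHLH E-box, and CCAAT, the CCAAT box, searched on both strands so that ATTGG is a CCAAT box on the other strand. Sox4 lies at chr13:28953650-28953949 (minus strand), Sox11 at chr12:27342669-27342968 (minus strand) and Olig2 at chr16:91225300-91225599 (plus strand).
Sox4: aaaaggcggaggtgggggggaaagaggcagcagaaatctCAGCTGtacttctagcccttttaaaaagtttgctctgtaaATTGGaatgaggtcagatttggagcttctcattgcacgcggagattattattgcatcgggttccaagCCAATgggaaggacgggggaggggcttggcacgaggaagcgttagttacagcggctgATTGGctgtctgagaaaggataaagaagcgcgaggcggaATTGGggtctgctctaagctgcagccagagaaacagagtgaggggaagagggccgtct
Sox11: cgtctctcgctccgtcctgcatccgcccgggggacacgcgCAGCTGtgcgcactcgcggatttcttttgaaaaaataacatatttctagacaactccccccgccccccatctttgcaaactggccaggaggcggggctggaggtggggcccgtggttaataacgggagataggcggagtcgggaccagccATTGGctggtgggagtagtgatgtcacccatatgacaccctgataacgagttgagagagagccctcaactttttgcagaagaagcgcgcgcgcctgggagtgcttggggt
Olig2: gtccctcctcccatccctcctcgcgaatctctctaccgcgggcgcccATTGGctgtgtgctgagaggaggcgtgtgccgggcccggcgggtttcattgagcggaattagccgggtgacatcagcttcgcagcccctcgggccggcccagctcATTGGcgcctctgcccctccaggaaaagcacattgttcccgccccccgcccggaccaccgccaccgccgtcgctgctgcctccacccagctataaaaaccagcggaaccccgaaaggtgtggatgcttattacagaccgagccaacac

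CAGCTG was found 1 time in the Sox4 window and 1 time in the Sox11 window, and in none of the windows of Sox2, Sox8 and Olig2. The same motif lies in 16.3% of 32851 promoter windows of this length. CCAAT was found 4 times for Sox4, 2 times for Olig2, 1 time each for Sox2 and Sox11 and not for Sox8, and it lies in 37.4% of the windows. ACAAT, a short form of the SOX motif, was found 1 time in the Olig2 window and in no other of the 5 windows, and it lies in 31.0% of all windows. The E-box CACGTG was found 1 time in the Sox8 window (7.15% of all windows). These matches describe letters only, and the table used held 5 of the 9 genes.

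The probe sets of the group C genes did not all tell the same story for MBs against GNPs. All 6 probe sets of Sox11 were higher in MBs than in cerebellum without overlap, by 6.72 to 8.13, while their differences from GNPs ran from -0.13 to 1.30. Of the 8 probe sets of Sox4, 2 stayed at the floor in every group, 1 of them among the 7 that were averaged, so the mean understates the level and the difference. The brightest, 1433575_at, read 12.90 in MBs, 12.68 in GNPs and 8.32 in cerebellum. Probe set 1419157_at ran the other way for the tumors and averaged 6.43 in MBs, with a range from 3.63 to 7.19, against 8.57 and 8.70 in GNPs, with no overlap. The lowest of these, 3.63, belonged to MB_706, whose 3′ control probes exceeded the 5′ ones by 2.935, where the remaining tumors gave 0.559 to 0.816 and the GNPs 0.154 and 0.23. The part of RNA quality in this difference, or in any other between MBs and GNPs, was not tested.

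**Figure D1:**
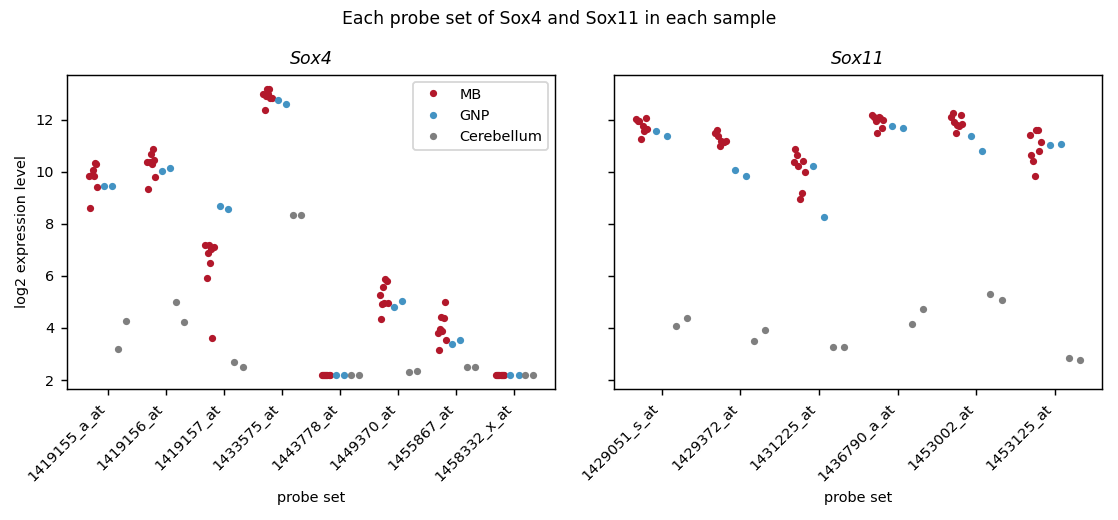
Log2 expression level (y axis) of every probe set of Sox4 and Sox11 (x axis), 1 point per sample, in MBs (n = 8), GNPs (n = 2) and cerebellum (n = 2). Cerebellum lies below the other groups for every probe set above the floor, and 1419157_at is the Sox4 probe set on which all MBs (3.63 to 7.19) lie below the GNPs (8.57 and 8.70).

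The oligodendrocyte lineage factors Olig1, Olig2 and Sox8 were higher in MBs than in GNPs, by more than 4-fold each. Sox10, which drives myelin genes, was not (difference -0.09, adjusted p = 0.994, limma). Olig2 (chromosome 16, 91225550 to 91228677), which marks dividing glial progenitors, was measured at 9.81, 8.97, 9.06, 8.71, 7.38, 8.37, 9.63 and 9.09 in the MBs, at 5.71 and 6.81 in GNPs and at 7.19 and 7.26 in cerebellum. Every MB lay above all 4 normal samples, though MB_1224, at 7.38, only just cleared the cerebellum. Olig2 was 2.62 higher in MBs than in GNPs (standard error 0.555, adjusted p = 0.00399, limma). Against cerebellum it was 1.65 higher in MBs (standard error 0.555, 95% interval 0.40 to 2.90, adjusted p = 0.0353, limma).

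Olig1 (chromosome 16, 91269769 to 91271939), needed for the maturation of oligodendrocytes and remyelination, had levels of 11.09, 10.54, 10.87, 8.89, 9.25, 10.48, 10.61 and 10.19 in the MBs, 7.50 and 8.33 in GNPs and 10.73 and 10.60 in cerebellum. All MBs exceeded both GNP samples, and the cerebellum fell inside the range of the MBs. The gene was 2.32 higher in MBs than in GNPs (standard error 0.55, adjusted p = 0.00732, limma) and lower in GNPs than in cerebellum, with a difference of -2.75 (standard error 0.696, adjusted p = 0.0142, limma). Between MBs and cerebellum it differed by -0.43, which did not pass, with an interval from -1.66 to 0.81 (adjusted p = 0.683, limma).

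Sox8 (chromosome 17, 25565893 to 25570686), a group E factor of oligodendrocyte precursors, followed the pattern of Olig1. It read 8.43, 7.22, 7.76, 6.25, 6.48, 6.79, 7.68 and 6.55 in the MBs, 4.61 and 5.33 in GNPs and 7.19 and 7.09 in cerebellum. The MBs surrounded the cerebellum and stood clear of the GNPs. Sox8 was 2.17 higher in MBs than in GNPs (standard error 0.533, adjusted p = 0.00893, limma) and lower in GNPs than in cerebellum, with a difference of -2.17 (standard error 0.674, adjusted p = 0.0373, limma). Its mean difference between MBs and cerebellum was 0.00, with an interval from -1.19 to 1.20 (adjusted p = 1, limma).

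Over all 18193 genes and the 12 samples, Sox8 had Olig1 as its nearest gene and Olig1 had Sox8. The root mean square difference of their deviations from their own means was 0.37. Olig2 lies 41.1 kb from Olig1 but was not nearest to it, and its closest gene was 1700086O06Rik, at 0.50. The Olig2 value minus the Olig1 value within a sample averaged -1.36 ± 0.62 (SD, n = 8) in MBs, with a range from -2.11 to -0.18, against -3.54 and -3.34 in the 2 cerebellum samples. No MB reached the cerebellum values. The group means differed by 2.08, a quantity chosen after the values were seen and given with no test. Against the GNPs, at -1.80 and -1.52, the difference was 0.29 and the groups overlapped.

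Sox9 was the 1 group E member higher in MBs than in both normal tissues, by about 2-fold. The gene (chromosome 11, 112782210 to 112787757) is needed for astrocytes, Bergmann glia and stem cell maintenance. It was measured at 6.89, 6.83, 6.57, 5.99, 6.89, 6.15, 6.55 and 6.58 in the MBs, at 5.44 and 5.77 in GNPs and at 5.59 and 5.58 in cerebellum. The lowest MB, MB_1207, still exceeded all 4 normal samples. Sox9 was 0.95 higher in MBs than in GNPs (standard error 0.235, adjusted p = 0.00913, limma) and 0.97 higher than in cerebellum (standard error 0.235, adjusted p = 0.00665, limma). GNPs and cerebellum differed by 0.02, with an interval from -0.65 to 0.69. One of its 3 probe sets stayed near the floor, and the brightest, 1451538_at, averaged 9.15 in MBs, 7.35 in GNPs and 7.45 in cerebellum.

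Sox10 (chromosome 15, 79154913 to 79164490), which drives myelin genes and neural crest fate, was low as the mean of its 3 probe sets. It did not pass in any comparison. Its levels were 3.92, 3.87, 4.57, 3.42, 3.16, 4.03, 3.80 and 3.36 in the MBs, 3.61 and 4.09 in GNPs and 4.46 and 4.36 in cerebellum. Only MB_1206 exceeded the cerebellum. The difference was -0.64 between MBs and cerebellum (interval -1.35 to 0.07, adjusted p = 0.138, limma) and -0.09 between MBs and GNPs (interval -0.80 to 0.62). Only 1 of the 3 probe sets, 1451689_a_at, was well above the floor, and it averaged 6.35 in MBs (4.78 to 7.86), 6.45 in GNPs and 7.77 in cerebellum.

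Sox2, the central factor of neural stem cells (chromosome 3, 34649995 to 34652461), was clearly measured in every sample and did not pass in any comparison. The MBs read 8.89, 9.29, 9.04, 7.84, 9.61, 9.46, 9.71 and 9.62, the GNPs 8.97 and 8.44 and the cerebellum 9.53 and 9.20. All groups overlapped with the MBs, whose lowest sample was again MB_1207. Sox2 differed by 0.48 between MBs and GNPs (interval -0.49 to 1.45, adjusted p = 0.493, limma) and by -0.18 between MBs and cerebellum (interval -1.15 to 0.79, adjusted p = 0.899, limma). These intervals leave room for a change of about 2-fold in either direction against cerebellum.

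Sox3 (chromosome X, 60891366 to 60893430), the X-linked relative of Sox2, was close to the floor throughout, and 1 of its 2 probe sets was at the floor in all 12 samples. Its levels ran from 2.68 to 3.52 in the MBs, with the highest in MB_706, the tumor with the large 3′ control excess. Levels were 2.85 and 2.76 in GNPs and 2.67 and 2.68 in cerebellum. No difference passed (adjusted p = 0.601 for MBs against GNPs and 0.228 against cerebellum, limma). Signal this close to the floor leaves little room to see a fall.

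**Figure D2:**
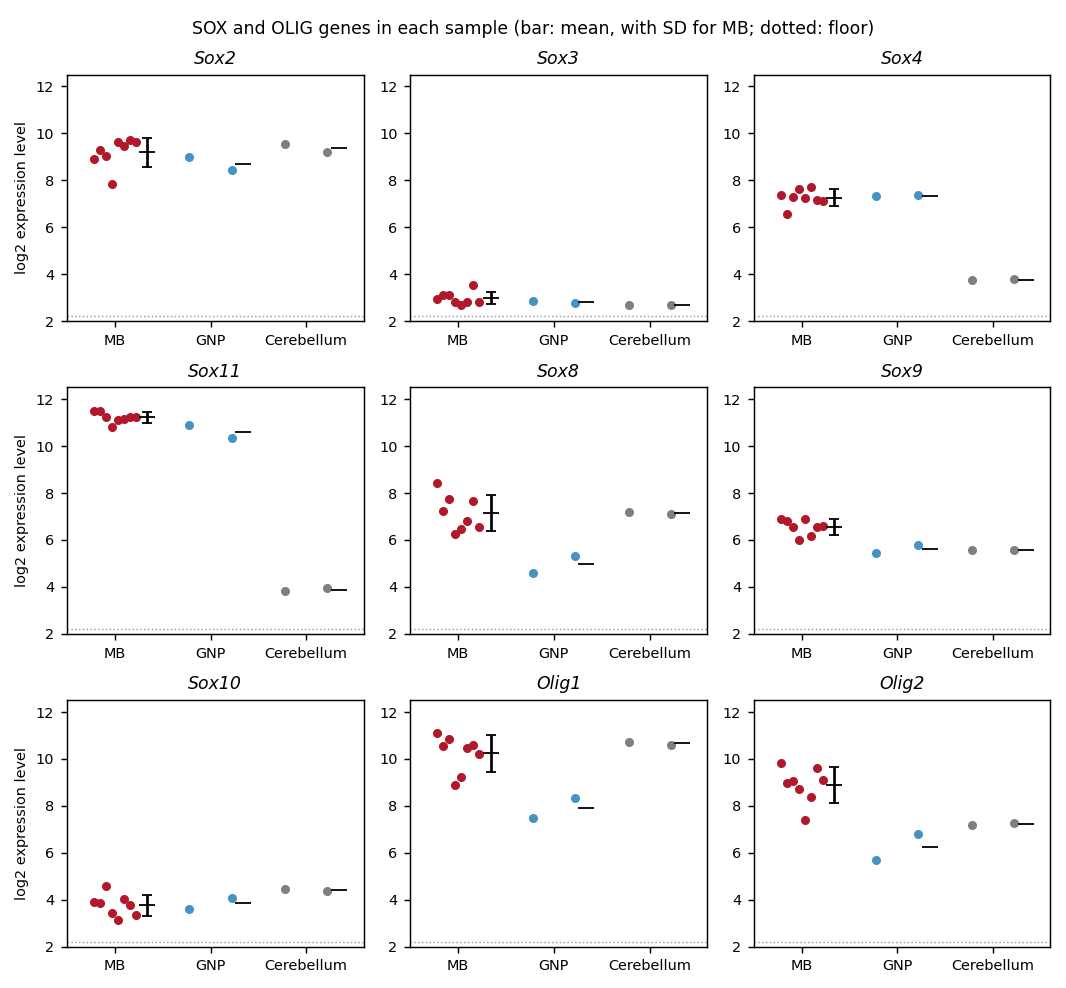
Log2 expression level (y axis) of each of the 9 genes in every MB (n = 8), GNP (n = 2) and cerebellum (n = 2) sample, with the mean as a bar and the SD for MBs. Sox4 and Sox11 are low in cerebellum alone, Olig1 and Sox8 are low in GNPs alone, and Olig2 and Sox9 are above all 4 normal samples in each MB.

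Over the 9 genes, 5 were higher in MBs than in GNPs (Sox8, Sox9, Sox11, Olig1 and Olig2) and 0 were lower, where 18.7% of all genes were higher and 18.6% lower (limma). The median difference of the 9 was 0.61, with 0 over all genes. The groups did not overlap for 4 of them, against 41.7% of all genes. In MBs against cerebellum 4 of the 9 were higher (Sox4, Sox9, Sox11 and Olig2) and 0 lower, with 22.2% of all genes higher and 21.8% lower. In both comparisons 0 of the 9 were lower at an unadjusted p under 0.05. Here the median was 0.30, and the groups did not overlap for the same 4 genes, against 46.9% of all genes. In GNPs against cerebellum 2 were higher and 2 lower (14.9% of all genes higher, 13.6% lower), with a median of -0.55. The 2 samples of each group did not overlap for 8 of the 9, against 59.3% of all genes. The shares without overlap in the tumor comparisons are close to those of all genes, and nothing particular to the 9 is read from them.

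**Figure D3:**
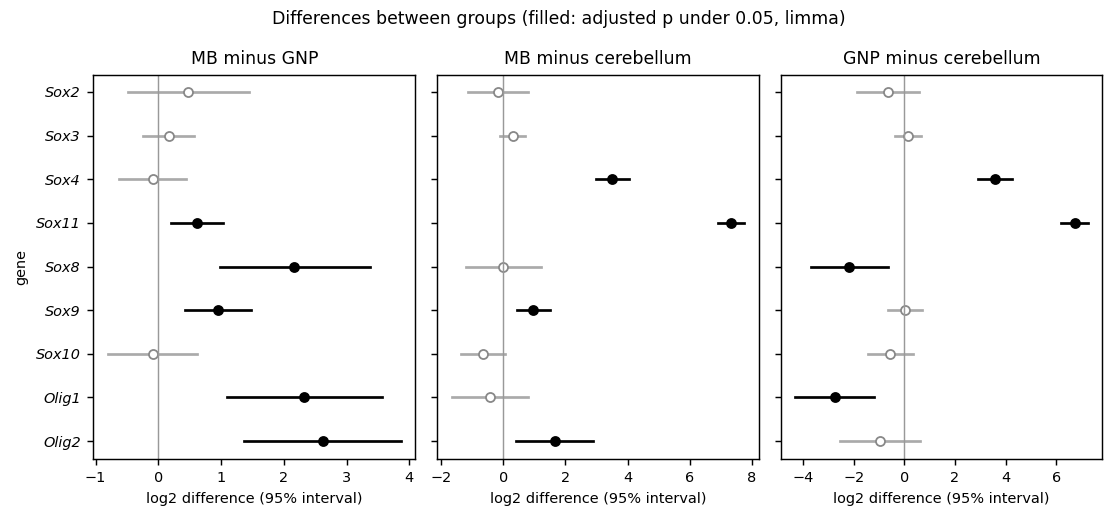
Log2 difference (x axis) of each of the 9 genes (y axis) between MBs and GNPs, MBs and cerebellum, and GNPs and cerebellum, with 95% intervals from limma and filled points where the adjusted p is under 0.05. Sox11 reaches 7.34 in MBs against cerebellum, and the intervals of Olig1, Olig2 and Sox8 span more than 2 units in each panel.

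Much of this rests on few normal samples. Without CGNP_2698 the 4 glial genes no longer passed between MBs and GNPs, at 1.91 for Olig1 (adjusted p = 0.0949), 2.06 for Olig2 (0.0669), 1.81 for Sox8 (0.104) and 0.79 for Sox9 (0.108), and without CGNP_2705 Sox11 fell short at 0.33 (0.363, all from limma). Olig2 against cerebellum lost its call without either cerebellum sample or without MB_1197, MB_1206, MB_706 or MB_794, at 1.54 to 1.69 (adjusted p 0.0506 to 0.164, limma). In GNPs against cerebellum, Sox8 lost its call without MB_1197 or without any 1 of the 4 normal samples (-2.53 to -1.81, adjusted p 0.0535 to 0.187, limma). Olig1 lost it there without CGNP_2698 or either cerebellum sample (-2.81 to -2.34, adjusted p 0.055 to 0.0936, limma).

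Among the members, gene values differed most between tumors for the oligodendrocyte lineage factors Olig1, Olig2 and Sox8. The SD between MBs was 0.78 for Olig1, 0.76 for Olig2 and 0.76 for Sox8, and only 5.74%, 6.07% and 6.08% of the 8289 genes with a mean above 5 in MBs varied more. Sox2 followed with an SD of 0.62 (10.1% of genes above it). Sox10 had an SD of 0.45 (20.4%) as the mean of 3 probe sets, and of 1.07 on the 1 probe set well above the floor, larger than that of any other member on its own probe set of highest signal. Sox11 was among the steadier genes, with an SD of 0.22 (63.8%), while Sox4 had 0.35 (33.5%) and Sox9 0.33 (35.7%). Olig1, Olig2, Sox8 and Sox2 were read by 1 probe set each, and Sox4, Sox9 and Sox11 are means of 7, 3 and 5. Averaging can lower an SD, above all with a probe set near the floor, so the order may partly reflect probe set number. These shares describe 8 tumors and carry no test.

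Most of the lowest values lay in 2 tumors, though not every member was low in them. MB_1207 had the lowest level for 5 members (Sox2, Sox8, Sox9, Sox11 and Olig1), and MB_1224 for 3 (Sox3, Sox10 and Olig2). Relative to the MB median, Olig1 stood at -1.63 in MB_1207 and at -1.27 in MB_1224. Olig2 separated these tumors, at 8.71 in MB_1207 and 7.38 in MB_1224. Sox2 also did, at 7.84 in MB_1207 and 9.61 in MB_1224. Sox4 stood 0.34 above the MB median in MB_1207, and Sox9 stood 0.31 above it in MB_1224. At the other end, MB_1187 had the highest level for 5 members (Sox8, Sox9, Sox11, Olig1 and Olig2).

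Markers of several other cell types were also lowest in these tumors. The mean over the 10 markers of astrocytes and Bergmann glia was 4.94 in MB_1207 and 5.71 in MB_1224, against 6.63 to 7.53 in the other 6 MBs, 7.69 to 7.79 in GNPs and 9.39 to 9.43 in cerebellum, with none of the 10 at the floor in any group. The mean over 9 oligodendrocyte precursor markers was 5.56 in MB_1207 and 5.35 in MB_1224, against 6.10 to 6.84 in the other MBs. Beyond glial precursors, the means of MB_1207 and MB_1224 were 3.12 and 3.18 for Purkinje cell markers (3.95 to 6.71 in the other MBs), 6.17 and 6.0 for microglia (6.41 to 7.34), 3.10 and 3.33 for myelinating oligodendrocytes (3.74 to 4.85) and 3.15 and 2.91 for mesenchymal cells (3.40 to 5.81). Granule progenitor markers did not set these tumors apart, at 10.27 and 10.22 within a range of 10.10 to 10.67 over the MBs. The part of RNA from other cell types in the spread was not tested. Without both tumors the same number of members, 5 against GNPs and 4 against cerebellum, were higher in MBs, and the Olig2 difference from cerebellum was 1.93 (adjusted p = 0.00624, limma).

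**Figure D4:**
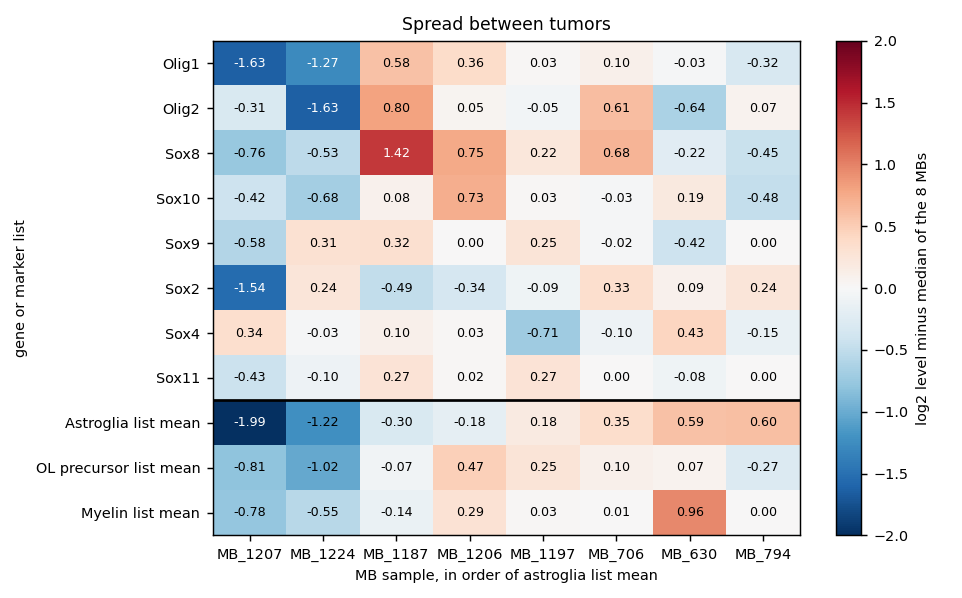
Log2 level minus the median of the 8 MBs (color, printed in each cell) for 8 of the 9 genes and the means of 3 marker lists (rows) in each MB (columns, ordered by the astrocyte and Bergmann glia mean). MB_1207 and MB_1224, at the left, are low for Olig1 (-1.63 and -1.27), while Olig2 is lowest in MB_1224 (-1.63) and Sox2 in MB_1207 (-1.54).

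Genes of the oligodendrocyte lineage that stand around the OLIG factors did not move as a block. Of 9 precursor markers measured, 4 were higher and 1 lower in MBs than in GNPs, and 2 were higher and 3 lower in MBs than in cerebellum. Of all genes, 18.7% were higher and 18.6% lower against GNPs, and 22.2% and 21.8% against cerebellum. Pdgfra, the growth factor receptor of oligodendrocyte precursors, averaged 8.99 in MBs, 6.46 in GNPs and 4.88 in cerebellum, and C1ql1, a secreted precursor marker, 6.36 in MBs and the floor in both normal tissues, at least 3.85 higher than in GNPs. Gpr17, which marks precursors about to differentiate, was lower in MBs, at 5.94, against 8.32 in GNPs and 7.75 in cerebellum (difference -2.38 from GNPs, adjusted p = 0.00144, limma).

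Markers of myelination were low in the tumors. All 9 measured were lower in MBs than in cerebellum (21.8% of all genes), with a median of -5.17. Against GNPs 3 of 9 were lower in MBs (18.6% of all genes). Mbp, a major protein of myelin, averaged 7.72 in MBs, 7.91 in GNPs and 11.77 in cerebellum. Myrf, the switch for myelin genes downstream of Olig2 and Sox10, was at the floor in all 8 MBs, at 2.22 to 2.24, against 3.80 and 4.16 in cerebellum. The difference of -1.74 from cerebellum (adjusted p = 0.00809, limma) is the least that the floor allows. In GNPs Myrf was 2.68 in CGNP_2698, itself within 0.5 of the floor, and 5.05 in CGNP_2705, so that the difference of -1.64 between MBs and GNPs (adjusted p = 0.0138, limma) rests on 1 GNP sample.

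Olig3, the remaining OLIG gene, and several partner factors of the SOX and OLIG proteins were higher in MBs than in both normal tissues. Olig3, which marks the rhombic lip, read 9.53 to 10.53 in the MBs and was at the floor in both normal tissues, at 2.20 and 2.31 in GNPs and 2.20 and 2.47 in cerebellum. It was at least 7.64 higher in MBs than in GNPs (adjusted p = 1.6e-08, limma) and at least 7.56 higher than in cerebellum (adjusted p = 6.8e-09, limma). Of the 18 partner and related fate factors measured, 7 were higher and 2 lower in MBs than in GNPs (18.7% and 18.6% of all genes). Against cerebellum 9 were higher and 4 lower in MBs (22.2% and 21.8% of all genes). Pou3f2, a POU factor that pairs with SOX proteins on DNA, was 2.69 higher in MBs than in GNPs (adjusted p = 6.8e-06, limma) and 3.58 higher than in cerebellum (adjusted p = 5.0e-07, limma). Tcf3, a common bHLH partner of Olig proteins, was 2.47 higher than in GNPs (adjusted p = 1.0e-04, limma). Tcf4 and Tcf12, of the same list of partner and related factors, did not pass against GNPs. Their differences were -0.11 (adjusted p = 0.636, limma) and -0.28 (adjusted p = 0.0969, limma).

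Of 10 neural stem cell markers, 4 were higher and 1 lower in MBs than in GNPs and 5 did not pass, with a median difference of 0.22. Against cerebellum 4 were higher and 0 lower in MBs. Of all genes, 18.7% were higher and 18.6% lower against GNPs, and 22.2% and 21.8% against cerebellum. Among the stem cell markers Hes1, the Notch target that holds off differentiation, averaged 6.60 in MBs, 3.15 in GNPs and 4.75 in cerebellum. Prom1, a stem cell surface protein, was 1.49 higher in MBs than in GNPs (adjusted p = 0.0119, limma). Against cerebellum Prom1 did not pass, at 9.07 in MBs and 9.65 in cerebellum (adjusted p = 0.286, limma). Cd44 was lower in MBs than in GNPs, at 4.95 against 6.44, but higher than in cerebellum, at 3.52 (adjusted p = 0.00252, limma).

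Of the 12 other SOX genes, 2 were higher and 0 lower in MBs than in GNPs (limma, also 0 lower at an unadjusted p under 0.05). Against cerebellum 4 were higher and 2 lower in MBs. Of all genes, 18.7% were higher and 18.6% lower against GNPs, and 22.2% and 21.8% against cerebellum. The 2 higher than in GNPs are near the share of all genes, and nothing particular to the list is read from that count. Sox1, the remaining group B1 gene, passed the test where Sox2 and Sox3 did not, with 5.79 to 6.37 in the MBs, 3.57 and 3.28 in GNPs and 4.64 and 4.43 in cerebellum. The groups stood apart, and Sox1 was 2.66 higher in MBs than in GNPs (adjusted p = 9.5e-07, limma) and 1.55 higher than in cerebellum (adjusted p = 2.1e-05, limma). Sox12, the last group C gene, shared the direction of Sox4 and Sox11, at 5.42 in MBs, 5.48 in GNPs and 3.92 in cerebellum (difference 1.51 between MBs and cerebellum, adjusted p = 5.4e-04, limma).

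Close matches to the group C pattern were found outside the family. Over the 12 samples, the gene nearest to Sox11 was Igfbpl1, with a root mean square difference of 0.26 and means of 9.82 in MBs, 9.19 in GNPs and 2.51 in cerebellum. The gene nearest to Sox4 was Tubb5, a beta tubulin of dividing cells and young neurons, at 0.30.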

How the data were processed

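The deposited values are log2 expression levels, 1 per probe set and sample, which the authors made from Affymetrix mouse arrays by GCRMA in the R library affy. Software versions and a probe annotation were not given in the sources used here. GEO's platform annotation gave 1 gene for 34945 of the 45101 probe sets, several for 932 and none for 9160. The 64 array controls were dropped. Probe sets without an s or x suffix were averaged to genes (all, where each carried one), with no level filter. The prefix of each sample label gave its group, and the number after it named the sample. Each number was taken as 1 mouse, and the number of arrays limits precision. The p-values use 1 spread shared by the 3 groups, mostly that between MBs, also for GNPs against cerebellum. Differences were tested with limma 3.58.1 in R 4.3.3, which was tested on simulated data first. The 9 genes, the 15 lists and the rule for named genes (members, other SOX genes, the 2 largest changes each way per list, nearest genes) were chosen with earlier results of these data known. Genes named beyond that rule (Mbp, Tcf3, Tcf12, Pecam1, Cdh5 and Kdr) were picked after their values were seen. Alternatives covered probe set rules, scaling, array weights, variance estimates, level filters, the methods' t-test, pooled normal samples and leaving out each sample. Figures were drawn with matplotlib 3.10.9.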

Additional observations from a re-analysis of the deposited data

Results flagged for a closer look

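Sox2 in MB_1207, at a log2 level of 7.84, lay far below the other 7 MBs, which spanned 8.89 to 9.71. Its gap to the next tumor was 0.561 of the whole range, above the 95% limit of Dixon's test for 8 samples. Chance marks about 1 in 20 such groups, and 9 genes were examined. The same tumor was lowest for 5 of the 9 genes.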

How the results depend on the processing

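The 9 genes in 3 comparisons were recomputed 627 times under other settings, of which 596 stayed on the same side of the threshold, 30 kept the direction but no longer passed, 1 passed newly and 0 called values changed sign. The 1 that passed newly was Sox10, -0.76 in MBs against cerebellum without MB_1206 (adjusted p = 0.0336, limma). With the 4 normal samples pooled, 3 members in place of 5 were higher in MBs than in normal brain, since Sox8 (1.09) and Olig1 (0.95) no longer passed, and Sox4, at 1.71, did not pass either. Leaving out 1 sample at a time gave 1 to 5 members higher in MBs than in GNPs, 2 to 4 higher and 0 to 1 lower in MBs than in cerebellum, and 0 to 2 lower in GNPs than in cerebellum, with the lowest counts for CGNP_2698 and the cerebellum samples. Sox9 against cerebellum was lost without WC_2647 (0.97, adjusted p = 0.051, limma). Members lower in GNPs than in cerebellum numbered 1 with array weights, 0 with the methods' t-test (which also called 0 members lower in MBs) and 1 without MB_630 and MB_706, a setting chosen after seeing the data, as was leaving out MB_1207 and MB_1224. The Sox11 difference between MBs and GNPs was 0.23 with the probe set of highest signal (adjusted p = 0.467, limma), and the SD of Sox10 between MBs was then 1.07 in place of 0.45.

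Over all genes, a mean above 5 over all samples, which left 8370 genes, gave 2199 genes lower in MBs than in GNPs (3389 without it), 2276 lower in MBs than in cerebellum (3966) and 1414 lower in GNPs than in cerebellum (2477). Arrays shifted to the same median gave 8425 genes lower in MBs than in cerebellum, since the shift also moves the genes at the floor. Between GNPs and cerebellum the methods' t-test called 1094 genes higher and 1099 lower, in place of 2703 and 2477. No paired analysis was possible because no sample number in the labels is shared between groups. Signal near the floor limits Sox3, and probe sets at or near the floor lower the mean of Sox10. The 2 samples in each normal group limit every comparison.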

Other observations

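Sox18, a gene of blood vessel development, was high in all 8 MBs. It read 10.17, 9.12, 9.14, 10.87, 8.78, 10.39, 10.61 and 9.52 in the 8 MBs (MB_1187, MB_1197, MB_1206, MB_1207, MB_1224, MB_630, MB_706 and MB_794), 2.51 and 2.39 in GNPs and 4.82 and 4.59 in cerebellum. The gene was at least 7.37 higher in MBs than in GNPs (adjusted p = 4.1e-06, limma) and 5.12 higher than in cerebellum (adjusted p = 2.8e-05, limma). Of 7 endothelial markers, 0 were higher in MBs than in GNPs (18.7% of all genes) and 0 than in cerebellum (22.2% of all genes). Both counts were also 0 at an unadjusted p under 0.05 (limma). Against cerebellum 4 of the 7 were lower (21.8% of all genes). Pecam1, Cdh5 and Kdr gave little signal even in cerebellum, at 2.58, 2.56 and 2.37, and 5 of the 7 were at the floor in GNPs. The mean of the 7 was 2.72 to 4.47 in MBs, 2.55 to 2.62 in GNPs and 4.86 to 4.90 in cerebellum. Vessel content was not tested. Cldn5, a tight junction protein of vessels, read 3.74 to 7.65 in MBs, 2.83 and 3.19 in GNPs and 8.62 and 8.78 in cerebellum. Sox17, also of the endothelium, was at the floor in MBs with a difference of -1.37 from cerebellum, the least that the floor allows (adjusted p = 2.0e-04, limma).

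Of 10 microglial markers, 8 were higher in MBs than in GNPs (18.7% of all genes) and 5 were higher in MBs than in cerebellum (22.2%). Their mean was 6.0 to 7.34 in MBs, 3.26 to 4.22 in GNPs and 5.20 to 5.28 in cerebellum.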
